A study of Mus musculus with 6 samples.

Results

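The 38 genes described here encode heat shock proteins, the helpers that work with them, and both main heat shock transcription factors. They were chosen by gene symbol for their known function, with earlier results of the same knockout and wild-type libraries in view, so their differences between those genotypes are given as a description, and nothing is read from the counts of calls printed for that contrast. All 38 were found among the 23337 genes of the deposited table, and all 38 passed the filter of a mean of at least 10 normalized counts. The RNA came from tumour cells of basal cell carcinomas (BCC) that grew in the ear epidermis of mice. The knockout group (R26-SmoM2/+ Yapfl/fl K14CreER) held 3 libraries and the wild-type group (R26-SmoM2/+ K14CreER) held 3 libraries. Both groups carried SmoM2, a constitutively active Smoothened that drives Hedgehog signalling, and K14CreER, a tamoxifen-inducible Cre expressed in keratinocytes with an active Krt14 promoter. Both received tamoxifen at 4 weeks of age, and every sample was labelled as taken 6 weeks later. Cells of lineages in which the Krt14 promoter was silent when tamoxifen was given keep Yap in this model. The labels do not say whether cells were sorted or animals pooled.

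Chaperones bind unfolded or partly folded proteins and help them reach or keep their native shape. HSP70 proteins cycle on and off their clients with the help of J-domain (HSP40) partners and nucleotide exchange factors (HSP110 and BAG proteins), HSP90 acts on nearly folded clients such as kinases and steroid receptors, and small heat shock proteins hold clients in a soluble state. The factor HSF1 is held inactive in unstressed cells. When unfolded proteins build up it forms trimers, binds heat shock elements made of repeated GAA units in alternating orientation, and switches on the inducible chaperones, while the CCT ring, which folds actin and tubulin, and many HSP70 partners are made at a steady rate. Keratinocytes are known for high levels of the small heat shock protein HSPB1.

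The genes were placed by hand in 5 classes. Hsf1 and Hsf2 are the transcription factors. The stress-induced class held 13 genes, and 7 genes were classed as abundant without stress and raised further by heat (the heat-raised basal class). A constitutive class held 9 genes and the CCT chaperonin 7. A normalized count is a read count divided by the size factor of its library, and a log2 difference is the mean of log2(normalized count + 1) in one group minus that in the other, given with its standard error (SE). Values listed in threes are those of replicates 1, 2 and 3 in that order. The total depth ran between 15405490 and 25260431 reads per library.

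Facts of the libraries bear on every value below. Yap1, the deleted gene, had 591, 773 and 1764 normalized counts in the knockout libraries, against 5765, 6004 and 5573 in the wild-type libraries. Replicate 3 of each genotype carried a label code beginning with DM24, and replicates 1 and 2 codes beginning with DM22. What the codes mark is not given in the sources used here. The labels number the replicates but do not say that same-numbered libraries were paired. Pairs named below follow the numbering, and within the DM22 libraries they could be matched otherwise. Both DM24 libraries were shallower (15572640 and 15405490 reads, against 22836259 to 25260431 in the DM22 libraries). They held 58654 and 59594 normalized counts of Xist, against 8.62 to 15.1 in the DM22 libraries, and no read of the Y-linked gene Ddx3y, against 3202 to 3426 normalized counts. Sex, depth and code series therefore cannot be told apart here. The SE printed with each genotype difference comes from a fit without a code series term, so it includes the gap between code series.

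**Figure D1:**
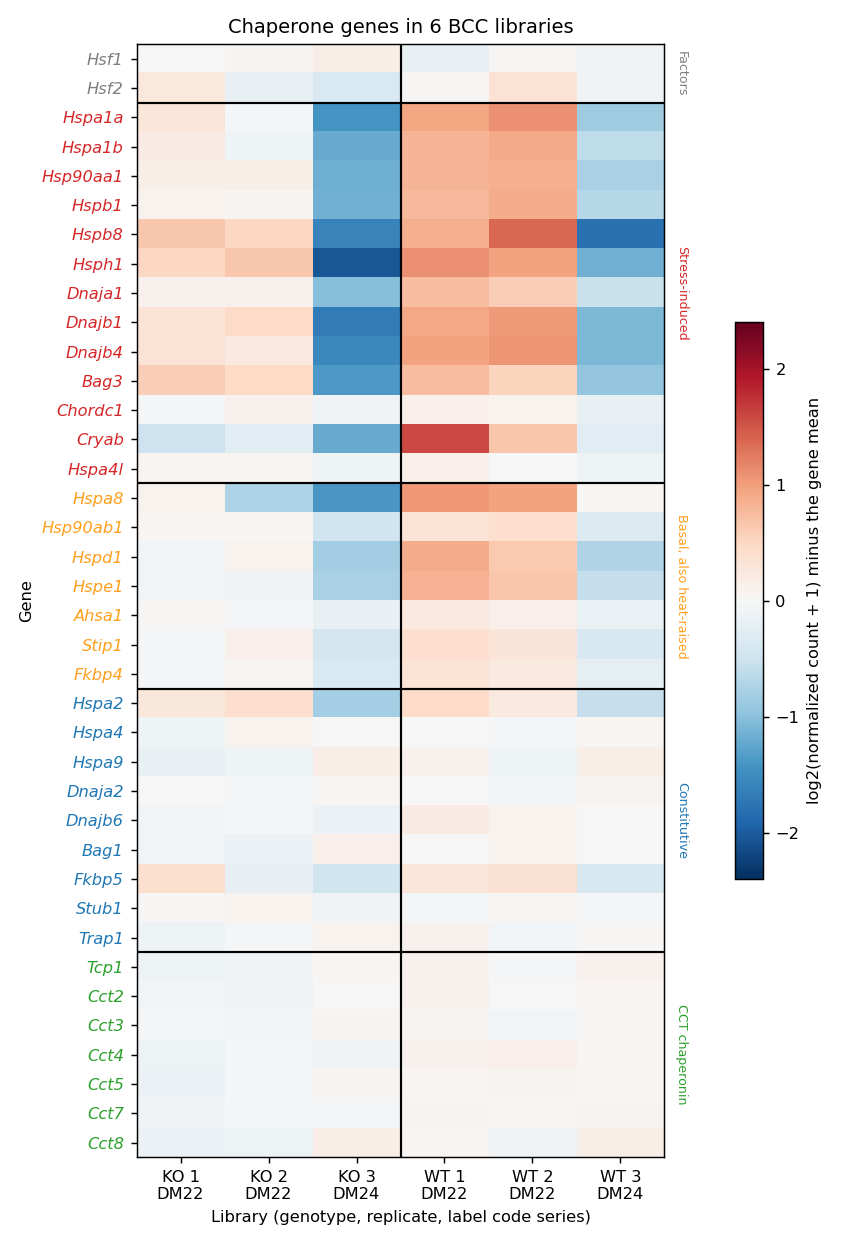
Each of the 38 genes (rows, coloured by class) in each of the 6 libraries (columns, knockout left of wild type), as log2(normalized count + 1) minus the mean of that gene over the libraries. Most stress-induced and heat-raised genes were lowest in the DM24 library of each genotype and highest in the DM22 wild-type libraries, and the CCT genes varied little.

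The chaperone genes took a smaller share of all reads in the knockout library of each replicate number. Together the 38 genes accounted for 2.41%, 2.24% and 1.31% of reads in the knockout libraries, against 3.34%, 3.35% and 1.60% in the wild-type libraries. The 13 stress-induced genes held 1.44%, 1.30% and 0.489% of reads in the knockout libraries, against 2.13%, 2.19% and 0.701% in the wild-type libraries. The 7 CCT genes held 0.208%, 0.212% and 0.241% in the knockout libraries, against 0.230%, 0.212% and 0.242% in the wild-type libraries. The share of the stress-induced class thus differed both by genotype and by code series, and that of CCT stayed between 0.208% and 0.242% in all 6 libraries. Wilson 95% intervals reached at most 0.00738 percentage points to either side of the share of the 38 genes, and they cover counting error only.

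Per kilobase of the principal transcript, the most abundant of the 38 transcripts were those of HSP90 and HSP70 genes. Hsp90ab1, the constitutive cytosolic HSP90, averaged 33605 normalized counts per kb over the 6 libraries. It was followed by Hspa1b at 30499, Hspa1a at 25283, Hspb1 at 19878, Dnajb1 at 13680 and Hspa8 at 8051 normalized counts per kb. The lowest 4 were Hsf2 at 245, Dnajb6 at 228, Chordc1 at 214 and Hspa2, an HSP70 best known from the testis, at 170 normalized counts per kb. Within the first 4 ranks the libraries of neighbouring genes overlapped, so their order is not fixed beyond the spread between libraries. The order also differed by genotype: Hsp90ab1 averaged 30483 normalized counts per kb and Hspa1b 22498 in the knockout libraries, while in the wild-type libraries Hsp90ab1 averaged 36727 and Hspa1b 38499. The CCT subunits lay close together, between 2434 (Tcp1) and 5026 (Cct2) normalized counts per kb.

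**Figure D2:**
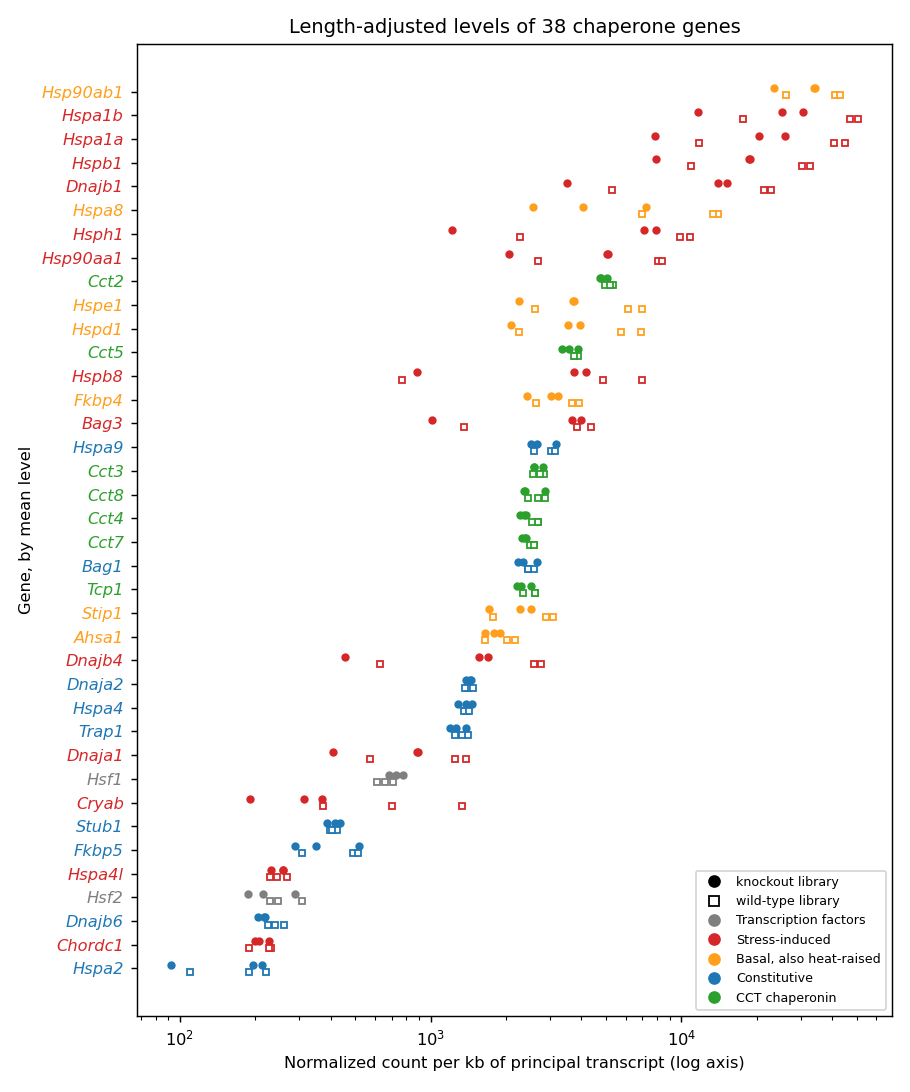
Normalized counts per kb of the principal transcript (log axis) for the 38 genes, ordered by their mean over 6 libraries; filled circles are knockout libraries, open squares wild-type libraries, and colour gives the class. Hsp90ab1, Hspa1b and Hspa1a lead, and the spread between libraries is widest in stress-induced genes such as Hspb8 and Hsph1.

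Over the whole set, 34 of 38 genes had a log2 difference, knockout minus wild type, below 0, beside 51% of the 13671 genes tested. The shift was unevenly spread over the classes, which were set by hand with earlier results of these libraries known. The class medians are therefore a description that depends on this placement. Hspa8 (−1.37) and Hsp90ab1 (−0.25), made also without stress, were placed in the heat-raised basal class. Joining that class to the constitutive one was not tried. The median log2 difference was −0.59 in the stress-induced class and −0.25 in the heat-raised basal class, against −0.06 in the constitutive class, −0.09 in CCT and −0.00 over all genes tested. Within same-numbered pairs of libraries the stress-induced median was −0.61, −0.72 and −0.46 and the heat-raised basal median −0.44, −0.35 and −0.12. The constitutive medians were −0.10, 0.02 and −0.04, and the CCT medians −0.18, −0.06 and −0.04. The stress-induced median depended on the balance of DM24 libraries between the genotypes, since it was −0.02 without knockout library 3 and −1.23 without wild-type library 3. It was −0.30 without wild-type library 1 and −0.28 without wild-type library 2, and −0.59 in the DM22 libraries alone.

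No gene of the set was called between genotypes by limma at an adjusted p under 0.05, where 0% of all genes were called. At an unadjusted p under 0.05, 3 of the 38 genes passed in limma, beside 5.55% of all genes. EdgeR also called none of the 38, beside 0% of all genes (0% lower). DESeq2 without a further term called none of the 38, beside 0.49% of all genes (0.322% lower). With the replicate number as a block, DESeq2 called 11 of the 38 lower, beside 1.24% of all genes (0.819% lower), while limma and edgeR with the block called none. With the code series as a term, DESeq2 called 13 of the 38 lower, beside 2.22% of all genes (1.46% lower). The 11 were Hspa1a, Hspa1b, Hsp90aa1, Hspb1, Hsph1, Dnaja1, Dnajb1, Dnajb4, Cryab, Hspa8 and Hspe1, and the code series term added Hsp90ab1 and Hspd1. Because the genes were chosen with this contrast known, nothing is read from these counts.

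Separation between libraries differed among the classes. The knockout libraries lay wholly below the wild-type libraries for 4 genes (Cryab, Dnajb6, Cct4 and Cct7), beside 5.87% of all genes, and wholly above them for none, beside 5.08%. When DM24 and DM22 libraries were each compared among themselves, knockout lay below wild type in both for 21 of 38 genes, beside 14.4% of all genes, and above in both for none, beside 11.7%. Those 21 were 9 of 13 stress-induced, 7 of 7 heat-raised basal, 1 of 9 constitutive and 4 of 7 CCT genes. All 3 same-numbered pairs were below 0 for 22 of 38 genes, beside 17.3% of all genes.

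**Figure D3:**
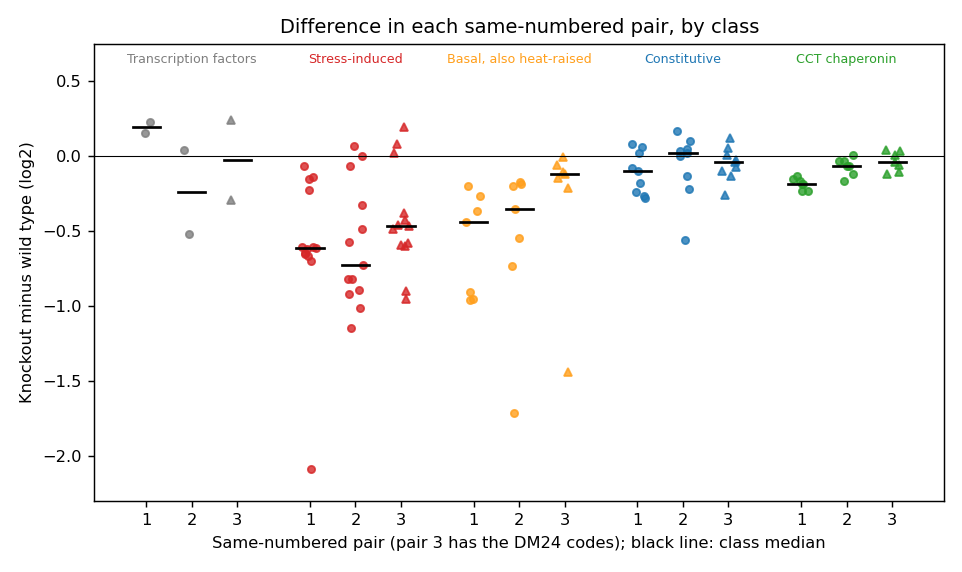
Log2 difference, knockout minus wild type, of each gene in each same-numbered pair of libraries (x axis, by class; triangles are the DM24 pair), with a black line at the class median. The stress-induced medians are −0.61, −0.72 and −0.46, and the CCT medians lie between −0.18 and −0.04.

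The transcription factors showed no common direction. Hsf1, the main driver of the heat shock response, had 1427, 1518 and 1617 normalized counts in the knockout libraries, against 1279, 1474 and 1369.5 in the wild-type libraries, a log2 difference of 0.15 ± 0.09. Hsf2, a related factor with roles in development, had 748, 556 and 486 in the knockout libraries, against 639, 797 and 596 in the wild-type libraries, a log2 difference of −0.19 ± 0.19. For both, the genotypes overlapped, and Hsf2 was higher in knockout in the first pair and lower in the other two.

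The inducible HSP70 genes were among the most abundant of the set and were lower in the knockout library of every pair. Hspa1a (GRCm38 chr17:34969190-34972156, minus strand) had 77239, 60361 and 23333 normalized counts in the knockout libraries, against 120986, 133369 and 34795 in the wild-type libraries, a log2 difference of −0.79 ± 0.66. Hspa1b (chr17:34956436-34959238, minus strand) had 86089, 70416 and 32685 in the knockout libraries, against 132298, 142211 and 49229 in the wild-type libraries, a log2 difference of −0.74 ± 0.53. In both genes the DM24 wild-type library lay below the DM22 knockout libraries, so the genotypes overlapped although they parted inside each code series. The genes are near-identical copies: 58.8% of the 50-base windows of the Hspa1a transcript also occur in the Hspa1b transcript, and 62.3% of those of Hspa1b in Hspa1a. Reads from such stretches cannot be told apart, and their split between the copies is uncertain. Both copies together held 0.79%, 0.63% and 0.284% of all reads in the knockout libraries, against 1.19%, 1.26% and 0.419% in the wild-type libraries.

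The copies also share their promoters. Over the 250 bases before the RefSeq gene start (GRCm38.p6), 247 bases were identical, or 98.8%. Each holds one pair of facing heat shock units (GAANNTTC) that begins 104 bases before the start, shown in capitals. These promoters were picked for display after the values of both genes were seen. The lines give Hspa1a from chr17:34972157-34972406 and Hspa1b from chr17:34959239-34959488, both on the minus strand and written 5′ to 3′.
Hspa1a: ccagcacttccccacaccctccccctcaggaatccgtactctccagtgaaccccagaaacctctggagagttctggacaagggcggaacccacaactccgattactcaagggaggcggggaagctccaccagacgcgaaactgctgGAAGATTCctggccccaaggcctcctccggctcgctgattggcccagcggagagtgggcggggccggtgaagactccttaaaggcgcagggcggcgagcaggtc
Hspa1b: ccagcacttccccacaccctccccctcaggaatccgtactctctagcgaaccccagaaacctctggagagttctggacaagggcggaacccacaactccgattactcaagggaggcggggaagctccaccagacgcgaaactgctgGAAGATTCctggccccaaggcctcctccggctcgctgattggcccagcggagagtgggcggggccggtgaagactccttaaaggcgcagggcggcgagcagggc

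Of the other HSP70 genes, Hspa8 had, with Cryab, one of the largest differences of the 38. Hspa8 (chr9:40800984-40810087, plus strand), the constitutive cognate HSC70 that also uncoats clathrin vesicles, had 17364, 9752 and 6155 normalized counts in the knockout libraries, against 33686, 32009.9 and 16672 in the wild-type libraries. Its log2 difference was −1.37 ± 0.44, and −0.96, −1.71 and −1.44 within pairs. The highest knockout library lay just above the lowest wild-type library, and knockout lay below wild type inside each code series. The small nucleolar RNAs Snord14c and Snord14d, which lie within introns of this gene, were listed at 0 in all 6 libraries. Hspa2 differed little between genotypes, with 494, 538 and 233 normalized counts in the knockout libraries, against 558, 479 and 278 in the wild-type libraries, a log2 difference of −0.09 ± 0.40.

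**Figure D4:**
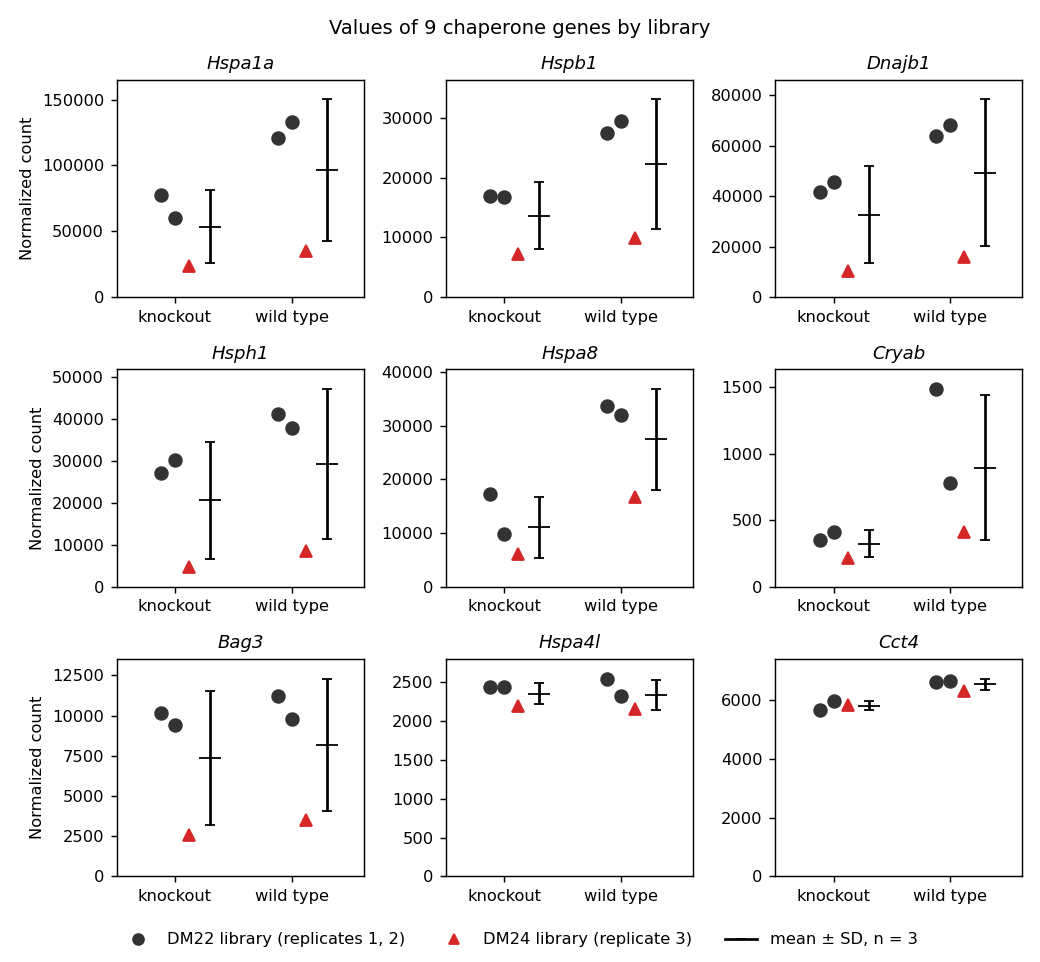
Normalized counts of 9 genes in each library, knockout left of wild type; circles are DM22 libraries, triangles DM24 libraries, and the bars give mean ± SD (n = 3). Inside each code series the knockout points of Hspa1a, Hspb1, Dnajb1, Hsph1, Hspa8, Cryab and Cct4 lie below the wild-type points.

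The J-domain partners that stress induces were lower in knockout in every pair. Dnajb1, the main inducible HSP40, had 41841, 45765 and 10478 normalized counts in the knockout libraries, against 63839.8, 68137 and 15843 in the wild-type libraries, a log2 difference of −0.59 ± 0.78. Its same-numbered pairs lay close together, at −0.61, −0.57 and −0.60, and the SE was 0.08 in the fit with the code series term. Dnaja1 had 4967, 5019.7 and 2298 in the knockout libraries, against 7795, 7025 and 3213 in the wild-type libraries, a log2 difference of −0.54 ± 0.44. Dnajb4 had 4184, 3859 and 1124 in the knockout libraries, against 6356, 6809 and 1552 in the wild-type libraries, a log2 difference of −0.63 ± 0.75. In each of these genes the DM24 wild-type library was below both DM22 knockout libraries. The J-domain genes outside the inducible class had smaller differences. Dnajb6, a suppressor of protein aggregation, had 348, 351 and 330.0 normalized counts in the knockout libraries, against 419, 384 and 362 in the wild-type libraries, with no overlap and a log2 difference of −0.18 ± 0.10. Dnaja2 had a log2 difference of 0.01 ± 0.06.

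Exchange factors of HSP70 fell into unlike patterns. Hsph1 (HSP105), the inducible HSP110, had 27081, 30165 and 4635 normalized counts in the knockout libraries, against 41262, 37753 and 8645 in the wild-type libraries, a log2 difference of −0.61 ± 0.92. Bag3, a stress-induced partner that links HSP70 to selective autophagy, had 10186, 9386 and 2601 in the knockout libraries, against 11229.5, 9798 and 3496 in the wild-type libraries, a log2 difference of −0.21 ± 0.67. Hspa4l, a further HSP110, had 2436, 2436 and 2196 in the knockout libraries, against 2547, 2322 and 2160.3 in the wild-type libraries, a log2 difference of 0.01 ± 0.09. Hsph1 was lower in knockout inside each code series, whereas Bag3 and Hspa4l overlapped within the DM22 libraries. The constitutive HSP110 Hspa4 had a log2 difference of −0.01 ± 0.07, Bag1 one of −0.06 ± 0.09, and Stub1 (CHIP), a ubiquitin ligase that acts on chaperone clients, one of 0.01 ± 0.08.

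The small heat shock proteins also differed among themselves. Hspb1 (HSP25 in mouse) had 16939, 16759 and 7173 normalized counts in the knockout libraries, against 27459, 29513 and 9853 in the wild-type libraries, a log2 difference of −0.66 ± 0.53. Cryab (alpha-B crystallin) had 349.6, 414 and 214 in the knockout libraries, against 1487, 783 and 415 in the wild-type libraries. Its log2 difference was −1.32 ± 0.49, and −2.09, −0.92 and −0.95 within pairs, the largest being that of wild-type library 1. The highest knockout library and the lowest wild-type library were nearly level, without overlap. Hspb8, the partner of Bag3, had 7572, 6797 and 1603 in the knockout libraries, against 8833, 12643 and 1399 in the wild-type libraries, a log2 difference of −0.31 ± 0.98. In the DM24 pair its knockout library was above its wild-type library, by 0.20 on the log2 scale. Cryab overlaps Hspb2 head to head, and the library kit does not mark strand, but Hspb2 itself had at most 35.4 normalized counts in any library.

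Both HSP90 genes and 3 of their 5 co-chaperones were lower in knockout inside each code series. Hsp90aa1, the inducible form, had 16711, 16624 and 6748 normalized counts in the knockout libraries, against 26508, 27458 and 8792 in the wild-type libraries, a log2 difference of −0.59 ± 0.56. Hsp90ab1 had 85792, 85339 and 59323 in the knockout libraries, against 103310.0, 108671 and 65674 in the wild-type libraries, a log2 difference of −0.25 ± 0.25. The inducible form thus had the larger difference of the pair, as it did between code series. Stip1 (HOP), which hands clients over to HSP90, had 4793, 5306 and 3601 normalized counts in the knockout libraries, against 6503, 6086 and 3757 in the wild-type libraries, a log2 difference of −0.23 ± 0.25. Fkbp4, a steroid receptor co-chaperone, had 6713, 7131 and 5361 in the knockout libraries, against 8652, 8119.8 and 5819 in the wild-type libraries, a log2 difference of −0.22 ± 0.18. Ahsa1, an activator of the HSP90 ATPase, had 2607, 2466 and 2266 in the knockout libraries, against 2992, 2776 and 2269.6 in the wild-type libraries, a log2 difference of −0.12 ± 0.12. All 3 overlapped across the code series, and Ahsa1 was nearly level in the DM24 pair. Chordc1, a stress-induced HSP90 partner, had 1202, 1317 and 1158 normalized counts in the knockout libraries, against 1335, 1312 and 1096 in the wild-type libraries, a log2 difference of −0.02 ± 0.10. Fkbp5, better known as a glucocorticoid-induced gene, had 1999, 1346 and 1106 in the knockout libraries, against 1885, 1987 and 1182 in the wild-type libraries, a log2 difference of −0.19 ± 0.28, with a first pair above 0.

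Of the mitochondrial chaperones, both genes of the folding chamber were lower in knockout inside each code series, and the others were not. Across the code series the genotypes overlapped for all of them. Hspd1 (HSP60; chr1:55077835-55088243, minus strand) had 8572, 9575 and 5058 normalized counts in the knockout libraries, against 16671, 13948 and 5443 in the wild-type libraries, a log2 difference of −0.54 ± 0.47. Hspe1 (HSP10, its lid; chr1:55088132-55091307, plus strand) had 2877, 2859.8 and 1751 in the knockout libraries, against 5381, 4761 and 2029 in the wild-type libraries, a log2 difference of −0.62 ± 0.41. Within pairs the difference was −0.96, −0.54 and −0.11 for Hspd1 and −0.90, −0.74 and −0.21 for Hspe1. The genes lie head to head and overlap at their starts, so reads there cannot be assigned to a strand. Hspa9 (mortalin, the mitochondrial HSP70) had a log2 difference of −0.08 ± 0.12 and Trap1 (the mitochondrial HSP90) one of −0.06 ± 0.09.

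Between their RefSeq starts, Hspd1 and Hspe1 share a promoter region, and it holds matches to the 3-unit heat shock element. By the GENCODE coordinates given above, Hspd1 starts at 55088243, so the 250 bases printed for it lie inside that gene. The capitals mark a stretch with overlapping matches to this element of 3 alternating units (GAA, TTC and GAA, or the reverse complement, with 2 free bases between units), read here on the strand of each gene. The lines give the 250 bases before the RefSeq start (GRCm38.p6) of Hspe1, chr1:55087898-55088147 on the plus strand, and of Hspd1, chr1:55087933-55088182 on the minus strand, each 5′ to 3′. The stretch spans bases −89 to −72 from the Hspe1 start and −144 to −127 from that of Hspd1, and the capitals in each line are the reverse complement of those in the other.
Hspe1: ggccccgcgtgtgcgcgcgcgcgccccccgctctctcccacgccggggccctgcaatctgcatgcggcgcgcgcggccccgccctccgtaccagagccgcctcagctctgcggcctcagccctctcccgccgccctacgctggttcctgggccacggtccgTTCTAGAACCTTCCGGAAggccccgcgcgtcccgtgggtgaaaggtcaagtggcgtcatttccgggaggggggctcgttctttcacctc
Hspd1: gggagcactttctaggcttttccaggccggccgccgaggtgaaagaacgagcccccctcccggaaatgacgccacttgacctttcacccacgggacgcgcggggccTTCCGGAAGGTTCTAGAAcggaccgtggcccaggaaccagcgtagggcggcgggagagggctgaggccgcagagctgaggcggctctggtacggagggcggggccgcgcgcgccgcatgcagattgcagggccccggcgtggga

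A RefSeq promoter window was matched for 31 of the 38 genes. None was matched for Hsf1, Hsp90aa1, Cryab, Hspa8, Hsp90ab1, Hspa9 and Cct4. The 3-unit element occurred in the 250 bases before the start of 3 of the 31 (Hspd1, Hspe1 and Dnajb6), or 9.68%, beside 139 of 27025 genes with a window, or 0.514%. By class it was present in 0 of 11 stress-induced, 2 of 5 heat-raised basal, 1 of 8 constitutive and 0 of 6 CCT genes. The 2-unit form (GAANNTTC or TTCNNGAA, each its own reverse complement and each contained in the 3-unit form) occurred in 13 of 31, or 41.9%, beside 14.5% of all genes with a window. The 2-unit form was present in 6 of 11 stress-induced, 3 of 5 heat-raised basal, 2 of 8 constitutive and 2 of 6 CCT genes. In the stress-induced class these were Hspa1a, Hspa1b, Hspb1, Hsph1, Dnaja1 and Dnajb4. A gene was counted if any of its listed windows held the element. Hspd1 and Hspe1 were counted for the same stretch, and Hspa1a and Hspa1b for near-identical promoters, so these matches are not independent. A match is a run of letters and says nothing here about binding.

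The CCT subunits were nearly level. Cct4 had 5654, 5960.3 and 5833 normalized counts in the knockout libraries, against 6638, 6668 and 6327 in the wild-type libraries, a log2 difference of −0.17 ± 0.06. Cct7 had 5674, 5832 and 5871 in the knockout libraries, against 6299.9, 6112 and 6305 in the wild-type libraries, a log2 difference of −0.11 ± 0.06. Tcp1 (CCT1) had 5426, 5609 and 6155 in the knockout libraries, against 6376, 5743 and 6411 in the wild-type libraries, a log2 difference of −0.11 ± 0.08. For Cct4 and Cct7 the genotypes stood apart without overlap, although the differences were small. The log2 differences of Cct2, Cct3, Cct5 and Cct8 lay between −0.09 and −0.03. For the constitutive genes not given by library (Dnaja2, Hspa4, Hspa9, Bag1, Stub1 and Trap1) they lay between −0.08 and 0.01, with single pairs between −0.28 and 0.12.

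The stress-induced chaperones parted more widely by code series than by genotype. This contrast, DM24 minus DM22 with genotype in the fit, is not part of the rule that lists the genes, but genes and classes were chosen with earlier results of the same libraries known, so the counts are not independent of that choice. It was tested by limma on all 13671 genes with Benjamini-Hochberg adjustment. Limma called 16 of the 38 genes lower in the DM24 libraries and none higher, beside 4.07% of all genes called lower and 6.75% called in either direction. They were 10 of 13 stress-induced genes, 5 of 7 heat-raised basal genes, Hspa2 among the constitutive genes and no CCT gene. EdgeR called 16 lower, beside 3.41% of all genes, and DESeq2 19, beside 8.27%. The DM24 libraries lay wholly below the DM22 libraries for 20 of the 38 genes, beside 20.2% of all genes, and wholly above them for 3 (Hspa9, Dnaja2 and Cct8), beside 19% of all genes. Limma called 10 of the 38 without knockout library 1 (0.87% of all genes), 11 without knockout library 2 (0.768%), 9 without knockout library 3 (0.285%) and 7 without wild-type library 3 (0.658%). It called 17 without wild-type library 1 (10.9% of all genes) and 17 without wild-type library 2 (9.76%). Hsp90aa1, Hspb1, Hsph1, Dnaja1, Dnajb1, Dnajb4 and Bag3 were called in all 15 fits run.

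The stress-induced genes led this difference. The median log2 difference, DM24 minus DM22, was −1.46 in the stress-induced class and −0.61 in the heat-raised basal class, against 0.03 in the constitutive class, 0.07 in CCT and −0.00 over all genes tested. Hspb8 fell to a mean of 1501 normalized counts in the DM24 libraries, against 8961 in the DM22 libraries (log2 difference −2.54 ± 0.22 SE, limma adjusted p = 0.00998). Hsph1 averaged 6640 in the DM24 libraries, against 34065 in the DM22 libraries (−2.41 ± 0.12, limma adjusted p = 0.00104). Dnajb1 averaged 13161 in the DM24 libraries, against 54896 in the DM22 libraries (−2.06 ± 0.08, limma adjusted p = 0.000494). These 3 genes and Dnajb4 (−1.96 ± 0.08), Bag3 (−1.75 ± 0.10) and Hspa1a (−1.71 ± 0.14) had the largest called differences of the set. Bag3 and Hspb8, with genotype differences of −0.21 and −0.31, were thus among the genes that differed most by code series. Hspa8 and Cryab, the genes with the largest genotype difference, were not called by limma between code series. Their differences were −1.03 ± 0.23 (limma adjusted p = 0.0568) and −1.10 ± 0.28 (limma adjusted p = 0.0756). DESeq2 called both lower (DESeq2 adjusted p = 5.1e-05 and 0.00246), and edgeR called neither (edgeR adjusted p = 0.0636 and 0.0907). Chordc1 and Hspa4l (−0.20 and −0.16) were also not called by limma.

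**Figure D5:**
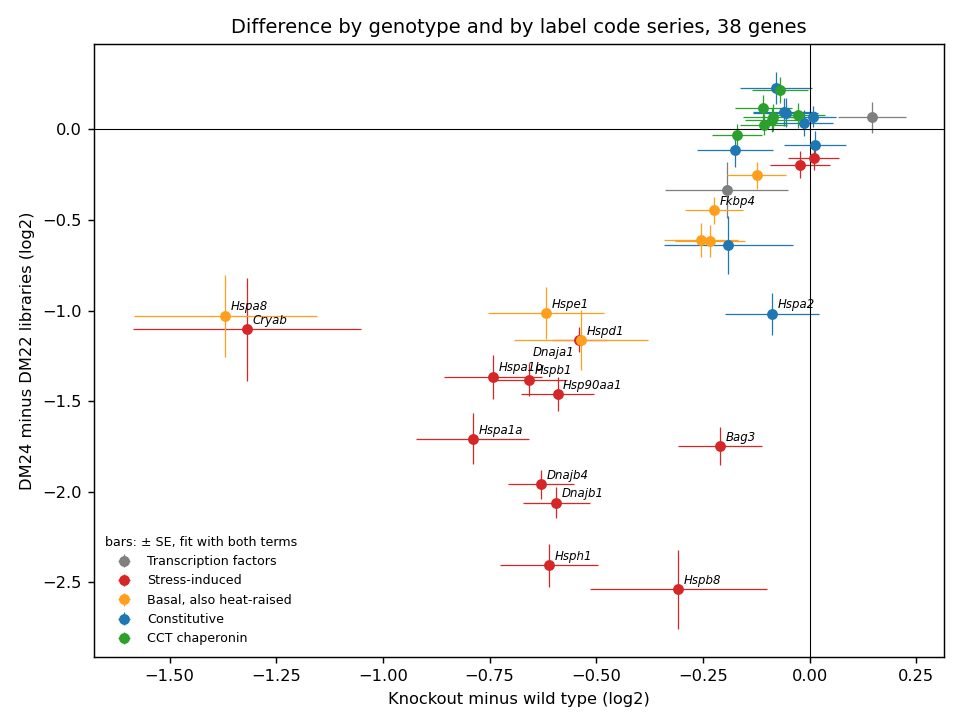
Log2 difference by genotype (x axis, knockout minus wild type) against log2 difference by code series (y axis, DM24 minus DM22) for each of the 38 genes, coloured by class, with bars of ± SE from the fit with both terms. Hspa8 and Cryab lie far to the left, Hspb8, Hsph1 and Bag3 far down, and most constitutive and CCT genes near 0 on both axes.

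Each genotype taken alone showed the code series difference. The median of the stress-induced class, DM24 minus DM22, was −1.30 in knockout and −1.58 in wild type. A test of whether the genotype difference changed with code series (the interaction) called none of the 38 genes in limma, beside 0% of all genes. At an unadjusted p under 0.05, 2 of the 38 passed, beside 5.47% of all genes. EdgeR called none of the 38, beside 0% of all genes, and DESeq2 none, beside 0.263%. Without wild-type library 1, limma called 1 of the 38 (Hspb8, interaction 1.01 on the log2 scale, limma adjusted p = 0.0125), beside 3.48% of all genes, and without wild-type library 2 none, beside 0.227%. The test rests on 1 DM24 library per genotype, and a missed threshold does not show that the differences were equal.

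Most genes that respond to handling and stress were, like the stress-induced chaperones, lower in the DM24 libraries, but their differences within pairs were unlike. Of 22 listed immediate-early and tissue-handling genes (Fos, Jun, Egr1, Atf3, Nr4a1 and others), all had a log2 difference, knockout minus wild type, below 0. The share of all genes below 0 was 51%, and the median of the 22 was −0.60. Limma called 0 of the 22 by genotype, beside 0% of all genes, with 2 at an unadjusted p under 0.05, beside 5.55%. DESeq2 called 1 (Cyr61, a YAP target, lower), beside 0.322% of all genes called lower. With the replicate block, DESeq2 called 4 of the 22 lower (Cyr61, Jun, Klf6 and Egr1), beside 0.819% of all genes. Within pairs their median was −0.12, −0.46 and −1.18, while that of the stress-induced chaperones was −0.61, −0.72 and −0.46. Their summed level ran between 103002 and 427830 normalized counts in the knockout libraries, against 239034 to 618881 in the wild-type libraries. By code series their median difference was −1.60, and 14 of 22 were called lower by limma, beside 4.07% of all genes. Their sum was 103002 and 239034 in the DM24 libraries, against 401954 to 618881 in the DM22 libraries. None of the 22 was at 0 in any library. Their part in the chaperone differences was not tested.

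Markers of keratinocytes were abundant and those of other cells low. Summed basal keratinocyte markers (7 genes) ran between 545004 and 567227 normalized counts in the knockout libraries, against 485491 to 695051 in the wild-type libraries. Differentiated keratinocyte markers (6 of 7 listed genes) summed to 24848 to 103378 in the knockout libraries, against 28380 to 45749 in the wild-type libraries, and they were higher in the DM24 libraries (45749 and 103378) than in the DM22 libraries (24848 to 36436). Fibroblast markers summed to 1612 to 7188 in the knockout libraries, against 3237 to 9427 in the wild-type libraries, with both DM24 libraries (1612 and 3237) below every DM22 library (5402 to 9427). That sum was mostly Dcn, and the other 4 of the 5 tested fibroblast markers had log2 differences, DM24 minus DM22, above 0. Immune markers summed to 271 to 529 in the knockout libraries, against 85.8 to 426 in the wild-type libraries, most of it Cd74, while Ptprc, Cd3e, Cd3g, Cd207, Itgam and Csf1r had no read in at least 1 library. Endothelial, melanocyte and muscle markers summed to at most 97.4, 735 and 59.7 normalized counts in any library. Limma and DESeq2 called none of these markers by genotype, beside 0% and 0.49% of all genes. At an unadjusted p under 0.05 in limma 1 passed, a basal keratinocyte marker, beside 5.55% of all genes. Their part in the chaperone differences was not tested, and in bulk RNA fewer cells of a type and less RNA per cell cannot be told apart.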

How the data were processed

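RNA was extracted with Qiagen RNeasy Plus columns, and the library kit was the unstranded TruSeq v2, per the labels' protocols. The labels do not say that libraries came from separate animals, so p-values describe only how these libraries vary. STAR 2.5, DESeq2 1.18.1 and mm10 (GRCm38) were named, per the submitters' processing notes; the sources used here give no counting tool or annotation. The authors deposited 1 signal table, in which each value is a read count divided by the size factor of its library. This was tested on the values: 100% were whole multiples of 1 step per library (tolerance 0.001 reads). No read was recorded for 5122 of 23337 genes, and 3 reads, the limit that 0 reads allow, equal 2.47 to 3.90 normalized counts.

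The 13671 genes averaging at least 10 normalized counts were tested with limma 3.58.1 (R 4.3.3; trend, robust) on log2(normalized count + 1), two-sided, with Benjamini-Hochberg adjustment at 0.05. This scale understates differences of low genes. Genotype was fitted without covariates; the code series was fitted with genotype, and the interaction with both. EdgeR 4.0.16 and DESeq2 1.42.0 were run on the recovered reads. Other pseudocounts, filters and scalings, a replicate block, a code series term and leaving out each library were tried. An exact permutation test of 3 against 3 cannot go below 0.1 and was not run.

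The replicate numbers, taken from the labels, were treated as pairs, although the labels state no pairing. Deviations from group means correlated by 0.333, 0.327 and 0.694 between same-numbered libraries. The best match of knockout library 1 was wild-type library 2 (0.505), and knockout library 2 correlated by 0.260 with wild-type library 1. Combinations across code series lay between −0.63 and −0.38. These values part the code series but do not settle which DM22 libraries pair, so pairs 1 and 2 rest on the numbering alone.

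The genes, their classes and the other lists were chosen with earlier results of these data known. Values per library were given for both factors, all stress-induced and heat-raised basal genes, and the 3 constitutive and 3 CCT genes with the largest absolute difference. Coordinates are 1-based, from GENCODE M21 on GRCm38; promoters are from RefSeq (GRCm38.p6). Of the 38 genes, 10 overlap another gene of the table, where reads cannot be told apart.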

Additional observations from a re-analysis of the deposited data

How the results depend on the processing

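By genotype, the count of the 38 genes called was 0 in limma under every pseudocount, filter, scaling, replicate block, code series term and left-out library tried, and 0 in edgeR with and without a term. It was 11 in DESeq2 with the replicate block and 13 in DESeq2 with the code series term, both added after seeing the data. The replicate block changed no call at an adjusted p under 0.05 in limma or edgeR, though more genes passed an unadjusted p under 0.05 with it. The stress-induced class median ran from −1.23 to −0.02 when single libraries were left out, and lay between −0.59 and −0.49 under the other settings, with −0.49 under quantile normalization. Leaving out 1 library leaves the code series uneven between genotypes. The constitutive class median was −0.12 in the DM22 libraries alone, and ran from −0.0557 to −0.0093 when single libraries were left out. By code series, the count called ran from 7 to 17 when single libraries were left out, and from 15 to 19 under the other settings, while the share of all genes called ran from 0.285% to 10.9% over the left-out libraries. The interaction count ran from 0 to 1 when single DM22 libraries were left out, the 1 in a fit that called 3.48% of all genes, and the DM24 libraries could not be left out, since each genotype has 1. Of the values of single genes by genotype under these settings, 795 moved by less than the spread between replicates and 3 by more. The 3 were Cct2, Cct4 and Cct7 under quantile normalization, each still below 0. The spread between replicates includes the gap between code series, so it was wide for genes such as Dnajb1 (SD 1.19, log2 scale). Some moves that turned the sign therefore counted as smaller. Without knockout library 3, Dnajb1 moved from −0.59 to 0.09 and Hsph1 from −0.61 to 0.26. In that fit 29 of the 38 genes were below 0, against 34 with all libraries. By code series, 497 kept their side of the threshold, 29 lost the call and 6 gained it. The cause of these changes was not tested. The fewest reads of any of the 38 genes in a library were 169 (Cryab), so counting error was limited, and the 3 libraries per genotype limit the precision.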

Other observations

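Chaperone and stress genes outside the 38 stayed closer to level. Of a further 60 genes (further small heat shock, J-domain and BAG proteins, prefoldin subunits, HSP90 co-chaperones, mitochondrial proteases and a few stress genes), 59 were in the table and 55 passed the filter. A log2 difference, knockout minus wild type, below 0 was found for 37 of the 55, beside 51% of all genes, and the median was −0.05. Limma called none by genotype, beside 0% of all genes, with 1 at an unadjusted p under 0.05, beside 5.55%. DESeq2 called none, beside 0.49%. The 3 with the largest absolute difference were Hspb3, Hspb2 and Hmox1. Hspb3, a muscle-type small heat shock protein, had 16.1, 9.07 and 26.6 normalized counts in the knockout libraries, against 7.57, 2.87 and 24.7 in the wild-type libraries, a log2 difference of 0.82 ± 0.78 (SE). Hspb2 had 24.1, 25.6 and 13.9 in the knockout libraries, against 30.3, 35.4 and 32.5 in the wild-type libraries, a log2 difference of −0.65 ± 0.32. Hmox1, the inducible haem oxygenase, had 567, 759 and 509.6 in the knockout libraries, against 1507, 1017 and 509.8 in the wild-type libraries, a log2 difference of −0.61 ± 0.40. Its DM24 libraries were level between genotypes. By code series, limma called 5 of the 55 lower in the DM24 libraries, beside 4.07% of all genes, and none higher.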
